A study of Mus musculus with 2 samples.

Results

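The miR-26 family of the mouse comprises 3 microRNA genes, Mir26b, Mir26a-2 and Mir26a-1, each within a gene of the Ctdsp family. They were picked by gene name among the 1973 microRNA genes counted in small RNA of embryonic lung, and all 3 were found in both libraries. The lungs came from B6NCrl mouse embryos of embryonic day 16.5, with male and female embryos pooled. Their small RNA under 30 bases was sequenced in 2 biological replicates that carry no further treatment, genotype or control group. Replicate 2 was a pool of 41 embryos, while for replicate 1 the labels used here state pooled lungs without a number. The data therefore hold levels of the 3 genes in whole lung and the difference between the replicates, with no comparison of conditions. In whole tissue, fewer cells that express a microRNA and less of it per cell cannot be told apart.

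A microRNA is cut from a hairpin in a longer transcript, and its mature strand guides Argonaute proteins to messenger RNAs that pair with its seed, bases 2 to 8. Mature microRNAs with the same seed are grouped as a family because they can recognise the same sites. For miR-26 the strand from the 5′ side of the hairpin (5p) is known as the guide strand, and the chromatin modifier Ezh2 is a known target. The host genes Ctdsp1, Ctdsp2 and Ctdspl encode small phosphatases of the C-terminal domain of RNA polymerase II, which take part in keeping neuronal genes silent outside the nervous system. Intronic microRNAs of this kind are often produced from the transcript of their host.

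The mature sequences are shown first because they decide which reads can be assigned to a single gene (RefSeq, build GRCm38.p6, 5′ to 3′, seed in capitals).
miR-26b-5p: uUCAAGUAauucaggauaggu
miR-26a-5p: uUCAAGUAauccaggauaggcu
miR-26b-3p: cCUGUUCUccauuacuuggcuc
miR-26a-2-3p: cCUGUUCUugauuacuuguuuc
miR-26a-1-3p: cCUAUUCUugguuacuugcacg
The 5p strands share the seed UCAAGUA, and no other mouse microRNA among 1679 mature names in the RefSeq table has it. Over 21 bases counted from the 5′ end, miR-26b-5p differs from miR-26a-5p by 2 substitutions, C11U and C21U (miR-26a-5p base first), and it is 21 bases long against 22. The strands of the 3′ side (3p) fall into a different grouping. Here miR-26b-3p and miR-26a-2-3p have the seed CUGUUCU, while miR-26a-1-3p has CUAUUCU. The seed CUGUUCU also occurs in miR-6932-3p and miR-7039-3p, whose genes had 0 and 0 counts in replicate 1 and 1 and 0 counts in replicate 2.

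Mir26a-1 and Mir26a-2 both encode the whole of miR-26a-5p, and they differ in the 3p strand. The hairpins are printed with both mature strands in capitals.
Mir26b: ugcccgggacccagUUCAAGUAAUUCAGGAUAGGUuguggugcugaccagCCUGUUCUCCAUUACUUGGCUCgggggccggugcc
Mir26a-2: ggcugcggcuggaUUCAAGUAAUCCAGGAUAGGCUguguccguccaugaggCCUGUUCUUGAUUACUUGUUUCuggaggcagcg
Mir26a-1: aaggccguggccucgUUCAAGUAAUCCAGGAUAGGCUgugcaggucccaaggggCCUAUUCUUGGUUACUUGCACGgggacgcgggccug
The longest run common to the hairpins of Mir26a-2 and Mir26a-1 is 25 bases, uucaaguaauccaggauaggcugug, which starts at the first base of miR-26a-5p and ends 3 bases past it. A read of at most 25 bases inside that run matches both genes, and a read of 26 bases can no longer lie inside it. The longest run that Mir26b shares with Mir26a-1 is 11 bases, and with Mir26a-2 it is 10. In windows of 22 bases, 4 of the 69 windows of the Mir26a-1 hairpin and 4 of the 63 of Mir26a-2 recur in another microRNA gene of the annotation. Of the 64 windows of Mir26b, 0 recur. Between the 3p strands of Mir26a-2 and Mir26a-1, 16 of 22 bases are identical, and each 3p strand was found in the hairpin of its own gene alone.

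The 3 genes occupy the same place in their hosts. Mir26b (ENSMUSG00000065468.1) lies at chr1:74394310-74394394 in intron 4 of the 7-exon transcript of Ctdsp1. Mir26a-2 (ENSMUSG00000065430.1) lies at chr10:126995530-126995613 in intron 5 of the 8-exon transcript of Ctdsp2. Mir26a-1 (ENSMUSG00000065513.1) lies at chr9:119031796-119031885 in intron 5 of the 8-exon transcript of Ctdspl. All are on the plus strand, as their hosts are, in build mm10. In each host the intron follows an exon of 57 bases and precedes exons of 93 and 186 bases, and 3 exons remain after it. The introns themselves differ in length, at 564 bases in Ctdsp1, 1946 in Ctdsp2 and 3283 in Ctdspl. Mir26b starts 2801 bases from the start of its host transcript, Mir26a-2 16813 bases and Mir26a-1 105343 bases. The last base of the Mir26a-2 hairpin is also the first base of an exon that opens 2 shorter Ctdsp2 transcripts. Messenger RNA was not measured, so host levels were not analysed here.

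**Figure D1:**
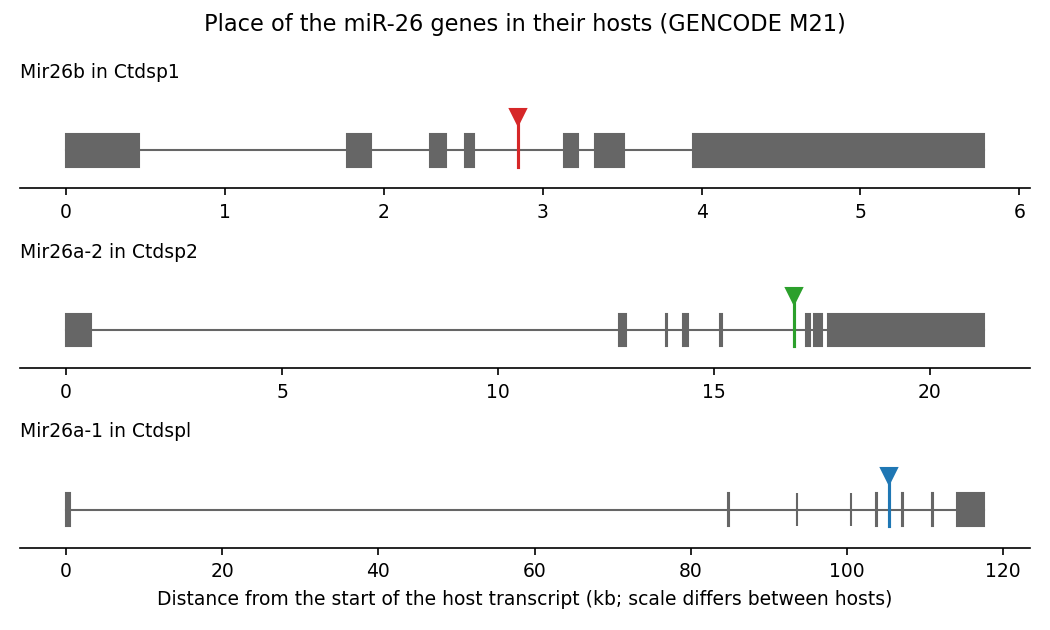
Exons (grey boxes) of 1 coding transcript of each host gene, with the place of the microRNA gene (coloured marker), against distance from the start of the transcript in kb, on a scale of its own for each host. Each microRNA gene sits in the intron before the last 3 exons, in intron 4 of Ctdsp1 and in intron 5 of Ctdsp2 and Ctdspl.

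Mir26b was among the microRNA genes with most counted reads in the lung, and both Mir26a genes were counted at low levels. Mir26b had 199533 counts in replicate 1 and 131266 in replicate 2, which is 31291 and 31832 CPM (counts per 1000000 counts of microRNA genes). Mir26a-2 had 328 and 194 counts, or 51.4 CPM (95% exact interval 46.0 to 57.3) and 47.0 CPM (40.7 to 54.2). Mir26a-1 had 71 and 46 counts, or 11.1 CPM (8.70 to 14.0) in replicate 1 and 11.2 CPM (8.17 to 14.9) in replicate 2. The levels of the 3 genes did not overlap, and their order was the same in both libraries. The means were 31561 ± 382 CPM for Mir26b, 49.2 ± 3.11 for Mir26a-2 and 11.1 ± 0.0146 for Mir26a-1 (SD, n = 2). The very small SD of Mir26a-1 lies far inside its counting intervals and is no measure of precision. The intervals here and below hold counting error alone, and PCR copies of a molecule can make reads dependent.

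**Figure D2:**
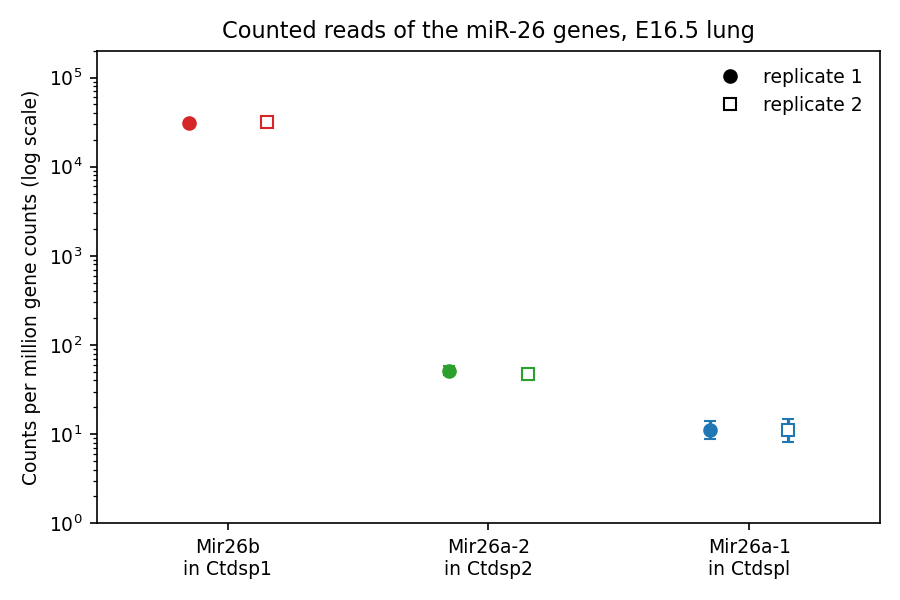
CPM (log axis) of Mir26b, Mir26a-2 and Mir26a-1 in replicate 1 (filled circles) and replicate 2 (open squares), with exact 95% intervals of counting error. Mir26b lies at 31291 and 31832 CPM, Mir26a-2 at 51.4 and 47.0 and Mir26a-1 at 11.1 and 11.2.

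Of the counts of the family, Mir26b held 99.8% in each library. Mir26a-2 held 0.164% in replicate 1 and 0.148% in replicate 2, and Mir26a-1 held 0.0355% and 0.0350%. Mir26b was counted 2810 times as often as Mir26a-1 in replicate 1 (exact 95% interval 2228 to 3598) and 2854 times in replicate 2 (2139 to 3898). Over Mir26a-2 its fold was 608 (546 to 680) in replicate 1 and 677 (588 to 783) in replicate 2, a mean of 642 ± 48.3 (SD, n = 2). Even the sum of both Mir26a genes, 399 and 240 counts, was 500.1-fold below Mir26b in replicate 1 and 547-fold in replicate 2.

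These folds compare counted reads and not the amounts of miR-26b and miR-26a. The tables list reads that match several loci on a line of their own, and reads of miR-26a-5p match both Mir26a genes. That line held 3856768 reads in replicate 1 and 2684057 in replicate 2, which is 29.97% and 31.8% of all reads in the tables. How many of these were miR-26a-5p is not recorded, so the level of miR-26a-5p was not analysed here. What is counted to Mir26a-1 and Mir26a-2 can come from the 3p strands, from the loop or from reads that reach past the shared run. The tables do not say which strand of the hairpin a count came from. Mir26b has no such copy among the annotated hairpins, so its 5p and 3p reads can both be counted.

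Between the copies of Mir26a, Mir26a-1 was counted 0.216 times as often as Mir26a-2 in replicate 1 (exact 95% interval 0.165 to 0.281) and 0.237 times in replicate 2 (0.168 to 0.328). Put the other way, Mir26a-2 was 4.62-fold higher in replicate 1 and 4.22-fold higher in replicate 2. The intervals of the libraries overlap and exclude equal counts in each. This ratio concerns reads that tell the loci apart, and the share of miR-26a-5p made by each gene was not measured.

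In the order of counted reads, Mir26b was the 8th of 1973 genes in each library and by its mean. Reads that match several loci are outside this order, so genes that share a mature strand can stand too low in it. It is therefore no order of the amounts of mature microRNAs. Just above it was Mir99a, at 35435 ± 2391 CPM, and just below was Mir23b, at 26797 ± 1333 CPM (SD, n = 2). Both gaps exceed these SDs, and the place of Mir26b was the same in both libraries. Mir26a-2 was 226th by its mean, between Mir505 at 49.3 ± 7.27 CPM and Mir103-2 at 48.3 ± 1.0997 CPM. Mir26a-1 was 282nd, between Mir7688 at 11.2 ± 0.973 CPM and Mir3080 at 10.5 ± 0.0563 CPM. Mir26a-2 did not differ from its neighbours beyond their spread, and in the libraries taken singly it was 223rd and 227th. Mir26a-1, 280th and 282nd in the single libraries, was closer to both neighbours than the width of its own counting interval. A level close to that of a neighbour is a likeness in mean CPM over 2 libraries and nothing more. Of the 347 genes with at least 10 counts in each library, called detected here, 97.7% were below Mir26b, 34.9% below Mir26a-2 and 18.7% below Mir26a-1.

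**Figure D3:**
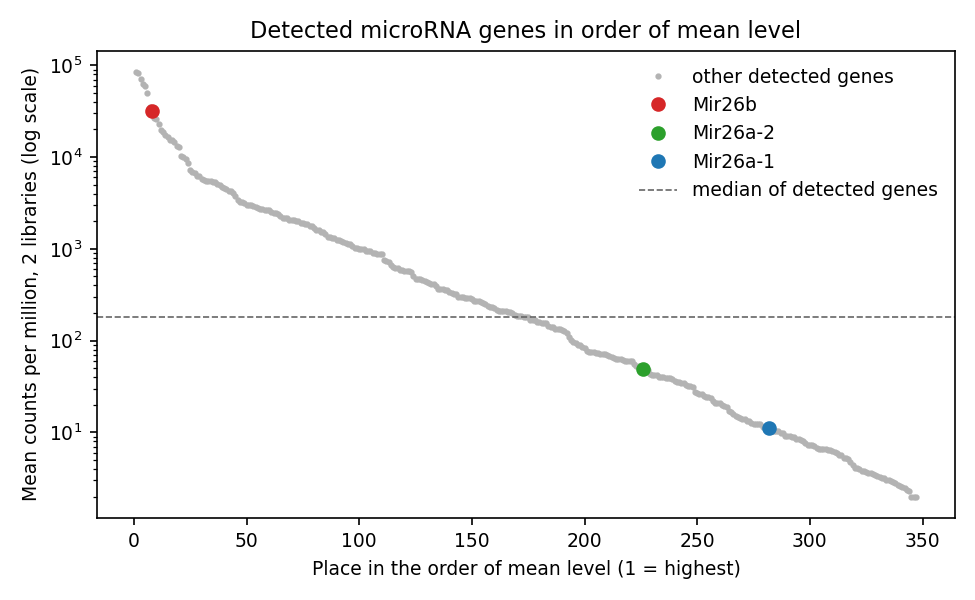
Mean CPM over the 2 libraries (log axis) of the 347 detected microRNA genes in order of their level, with the 3 miR-26 genes in colour and the median of 180.2 CPM as a dashed line. Mir26b is at place 8, while Mir26a-2 at place 226 and Mir26a-1 at place 282 lie below the median.

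Of the 347 detected genes, 157 (45.2%) lay within a protein-coding gene on its strand, close to the 43.3% (854) of all 1973 genes, with a median of 90.4 CPM, against 253 CPM for the other detected genes. Among these 157, Mir26b was 4th, after Mir126a (83199 ± 5768 CPM) in Egfl7, Mirlet7g (62701 ± 2333) in Wdr82 and Mir335 (50501 ± 1627) in Mest. Mir26a-2 was 91st and Mir26a-1 122nd. No gene was annotated on the strand opposite to a miR-26 gene, and the column of opposite-strand reads held 0 counts for each of them in both libraries, which allows up to 0.470 CPM in replicate 1 and 0.727 CPM in replicate 2. All of their counts were thus on the sense strand. The nearest other microRNA gene to Mir26a-2 was Mir546, 2827 bases away in the same host, with 2 counts in each library. For Mir26b the nearest was 187690 bases away and for Mir26a-1 1032366 bases.

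The Mir26a pair was set beside other duplicated genes. The annotation holds 42 pairs of microRNA genes whose symbols differ only in the ending -1 or -2, and in 24 of them the copies share 1 mature strand, the 5p strand in 17 pairs and the 3p strand in 7. Of the 48 genes of these pairs, 37 (77.1%) were detected, against 17.6% of all 1973 genes. The 37 detected genes had a median of 48.3 CPM, and 26 of them were below the median of 180.2 CPM of all detected genes. By the summed CPM of both copies the Mir26a pair, at 60.4 ± 3.09 CPM (SD, n = 2), was 12th of the 24, near their median of 55.8 CPM. In 10 pairs that share every mature strand, 2 of 20 genes (10%) were detected, which with so few genes is not set apart from the 17.6% of all genes.

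The pairs with most counts were Mir92, Mir16, Mir181a, Mir181b and Mir125b. Mir92-2 had 180.2 ± 22.2 CPM and Mir92-1 2675 ± 92.1 CPM. Mir16-2 had 393 ± 21.2 CPM and Mir16-1 1925 ± 92.02 CPM (SD, n = 2). In the Mir181 pairs the higher copy was on opposite sides, with 64.0 ± 7.29 CPM for Mir181a-2 and 1536 ± 117 CPM for Mir181a-1, and with 997 ± 200.1 CPM for Mir181b-2 and 17.0 ± 2.11 CPM for Mir181b-1. Mir125b-2 had 319 ± 5.86 CPM and Mir125b-1 186 ± 18.1 CPM. In 17 pairs both copies were detected. Their copies differed by a median of 2.73-fold, from 1.21-fold to 58.6-fold, and in 10 of the 17 the copies were closer than Mir26a-2 and Mir26a-1. The Mir26a pair was thus inside the range of the other pairs in level and in the ratio of its copies.

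**Figure D4:**
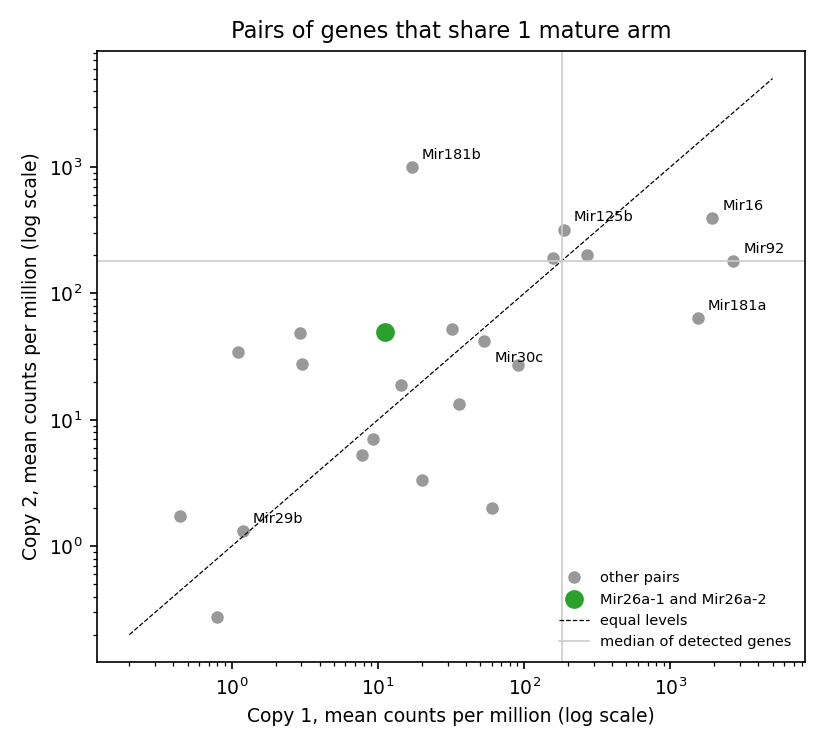
Mean CPM of copy 2 against copy 1 (both axes log) for pairs of microRNA genes that share 1 mature strand, leaving out 1 pair with 0 counts in both copies, with a dashed line of equal levels and grey lines at the median of all detected genes. The Mir26a pair (green) lies above the line of equal levels and below the median on both axes.

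Among the families set beside miR-26, miR-30 and miR-29 likewise hold a duplicated gene. In each of these pairs the copies share 1 mature strand and differ in the other. The shared strand is 5p in miR-30c, as in miR-26a, but 3p in miR-29b. The unshared strands of miR-30c have the same seed, while those of miR-26a and of miR-29b do not (seed in capitals).
miR-30c-5p, in both copies: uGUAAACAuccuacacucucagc
miR-30c-1-3p: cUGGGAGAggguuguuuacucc
miR-30c-2-3p: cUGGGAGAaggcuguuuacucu
miR-29b-3p, in both copies: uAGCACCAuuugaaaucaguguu
miR-29b-1-5p: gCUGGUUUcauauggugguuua
miR-29b-2-5p: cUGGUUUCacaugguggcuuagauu
In the miR-30 family the most abundant gene, Mir30e, had 17272 ± 929 CPM (SD, n = 2). The duplicated Mir30c-1, which lies in the same host gene Nfyc, had 53.0 ± 6.40 CPM and Mir30c-2 had 42.0 ± 5.07 CPM. The fold of Mir30e over them was 327 ± 21.97 and 416 ± 72.3. Of the genes outside the pair, Mir30a had 12764 ± 250 CPM and Mir30d 6762 ± 334 CPM, while Mir30b was also low for the family at 155 ± 13.3 CPM. For Mir30b and Mir30d no mature sequence was matched, so whether they share a strand with another gene was not checked. In the miR-29 family Mir29a had 128 ± 21.3 CPM and Mir29c 56.2 ± 0.477 CPM. The duplicated Mir29b-1 and Mir29b-2 had 9 and 9 counts in replicate 1 and 4 and 5 in replicate 2. The miR-101 family, of which Mir101c was not analysed here, differs in that no mature strand of Mir101b or Mir101a is shared. Mir101b had 1312 ± 50.6 CPM and Mir101a 74.4 ± 0.0805 CPM, a fold of 17.6 ± 0.6997. These folds are set side by side as values, and whether that of miR-26 differs from them was not tested.

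Between the replicates the miR-26 genes differed little. An exact binomial test compared the share of each detected gene in the reads of the libraries, with Benjamini-Hochberg adjustment over all 347 genes, and 47.0% of these passed at an adjusted p under 0.05, 16.4% higher in replicate 1 and 30.5% higher in replicate 2. It weighs counting error only and says nothing of conditions, because there is a single group. Each pool was sequenced as 1 library, so differences between the pools and between their libraries cannot be told apart. Mir26b had a log2 ratio of replicate 1 over replicate 2 of -0.025 (exact 95% interval -0.035 to -0.015), a level 0.983 times as high, with an adjusted p of 6.11e-06 in the exact binomial test. That call turned round with the scale, to 0.012 with edgeR's TMM factors (adjusted p = 0.0410) and 0.027 with DESeq2's size factors (adjusted p = 6.55e-07), so no direction is given for Mir26b. Mir26a-2 had a log2 ratio of 0.13 (-0.13 to 0.39; adjusted p = 0.470, exact binomial test). For Mir26a-1 the log2 ratio was -0.0027 (positive with TMM and DESeq2's factors), with an interval of -0.56 to 0.57 and an adjusted p of 1 in the exact binomial test. At these depths the intervals allow a level in replicate 1 of 0.679 to 1.48 times that in replicate 2 for Mir26a-1, and of 0.913 to 1.31 times for Mir26a-2.

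Calls were more frequent among abundant genes. Of the 22 genes at 10000 CPM or more, 21 passed the same test, and 1 of the 22 had a ratio closer to 0 than Mir26b. Over all detected genes the median absolute log2 ratio was 0.16, and 24 of 347 genes had a smaller one than Mir26b. A smaller one than that of Mir26a-2 was found in 146 genes. These comparisons of ratios hold on the scale of the gene totals and were not made with TMM or DESeq2's factors. Which genes lie closest to 0 depends on that scale, as the sign of Mir26b does. Among the 123 detected genes between 5 and 100 CPM, the range of both Mir26a genes, 21 passed.

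**Figure D5:**
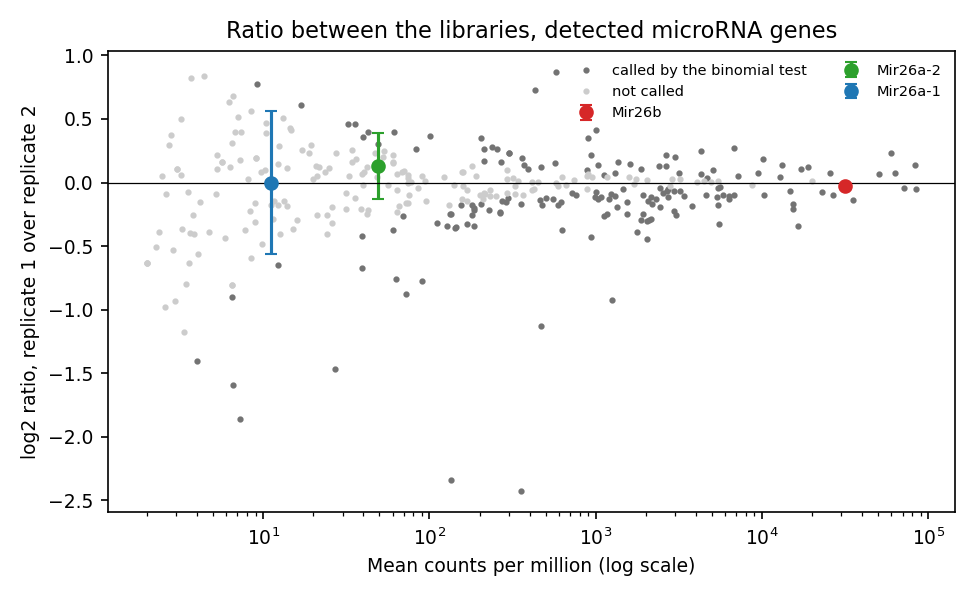
Log2 ratio of replicate 1 over replicate 2 against mean CPM (log axis) for the 347 detected microRNA genes, dark where the binomial test passed and pale where it did not, with the 3 miR-26 genes in colour and their exact 95% intervals. Mir26b is at -0.025, Mir26a-2 at 0.13 and Mir26a-1 at -0.0027 (the signs of Mir26b and Mir26a-1 turn round on other scales), and the intervals of both Mir26a genes include 0.

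As a group the 3 genes held 3.14% of the counts of all microRNA genes in replicate 1 (exact 95% interval 3.12 to 3.15%) and 3.19% in replicate 2 (3.17 to 3.21%), a mean of 3.16% ± 0.0379 (SD, n = 2). The libraries had 6376715 and 4123748 counts of microRNA genes. Multi-locus reads, among them any miR-26a-5p reads that match both Mir26a genes, are outside the share and these totals. Of the labelled tissue, the 10 microRNAs chosen as markers of endothelium, smooth muscle, epithelium and multiciliated cells had means between 941 and 83199 CPM, but other members of the families of the multiciliated markers were lower, such as Mir34b at 39.3 and Mir449b at 20.97 CPM. The single markers chosen for other tissues varied between the libraries. In replicate 1 and replicate 2, Mir122 of liver had 111 and 601 CPM and Mir208a of heart had 536 and 324. Mir206 of skeletal muscle had 294 and 643 CPM, and Mir451a of red cells had 747 and 408, in the same order. The 3 Mir124a genes of brain, numbered as copies, had 0 or 1 counts. Reads that match several loci are not counted to a gene, and whether these copies share a mature strand was not checked. Their low counts therefore do not tell whether brain RNA was present.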

How the data were processed

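The deposited values are counts of reads per microRNA gene, without normalization, made by the authors on assembly mm10 with annotation release M4, per the file headers. Aligner, counting program and trimming were not given in the sources used here, nor is a column named for use. The column without strand was used; the sense and opposite-strand columns sum to it in all 1973 genes. Lines for unmapped, multi-locus, outside-gene and ambiguous reads stayed out of totals. Names, positions and hairpins came from GENCODE release M21 (1894 of 1973 identifiers matched) and mature strands from RefSeq, in which all 3 members matched.

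CPM, exact Clopper-Pearson intervals at 95% and exact binomial tests with Benjamini-Hochberg adjustment (threshold 0.05, at least 10 counts in each library) were computed in Python 3.11.15 with scipy 1.17.1, and tested on simulated data. The simulated counts held counting error only and were scaled on the genes left unchanged. They therefore do not test the scale of the gene totals or the spread between real libraries. A count of 0 is taken to allow 3 counts. R 4.3.3 with edgeR 4.0.16 and DESeq2 1.42.0 gave other scales. The members, lists and tests were chosen with earlier results of these data known. The genes named are the members, genes sharing a seed or mature strand, neighbours in level, the 5 duplicated pairs with most counts and the 3 comparison families.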

Additional observations from a re-analysis of the deposited data

How the results depend on the processing

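The direction between the replicates depended on the scale. For Mir26b the log2 ratio of -0.025 became 0.012 with edgeR's TMM factors and 0.027 with DESeq2's size factors. With multi-locus reads added to the totals it became 0.016 (exact binomial tests, adjusted p from 6.55e-07 to 0.0410 over these 3 settings). It stayed negative in the sense-strand column (-0.026) and without the most abundant gene (-0.029). A different count minimum cannot change the ratio of a gene. For Mir26a-1 the log2 ratio became 0.034 with TMM, 0.049 with DESeq2's factors and 0.038 with multi-locus reads added, none past the test. The cause was not tested beyond the scale itself, which moved the median of all detected genes by 0.037 with TMM and 0.052 with DESeq2. Mir26a-2 kept its direction, which the count minimum cannot change, and did not pass under any of the settings run.

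The share of the family was 3.25% in the sense-strand column and 3.45% without Mir322, the most abundant gene. It was 1.94% with multi-locus reads added to the total alone, so any miR-26a-5p reads among them were not counted to the family. Either replicate alone gave 3.14 to 3.19%. With either replicate left out, the folds are those of the single libraries. They were 2810 to 2854 for Mir26b over Mir26a-1, 608 to 677 over Mir26a-2, and 0.216 to 0.237 for Mir26a-1 over Mir26a-2. The sense-strand column had to give the same folds, because no miR-26 gene had opposite-strand counts.

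The number of genes that passed was 163 of 347 (47.0%; 57 higher in replicate 1, 106 higher in replicate 2), 158 with TMM (74 and 84), 153 with DESeq2's factors (78 and 75), 160 of 575 genes tested (27.8%) at a count minimum of 1, and 159 of 277 (57.4%) at 50. At the minimum of 50 Mir26a-1 was not tested, and with a replicate left out no ratio exists. No paired analysis was possible because there is a single group.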
